A study of Mus musculus with 8 samples.

Results

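The genes described here encode 9 cation channels that have been tied to mechanical force: Piezo1, Piezo2, Trpv2, Trpv4, Trpm4, Trpm7, Trpc1, Trpc6 and Pkd2. They were chosen by name, and all 9 were found among the 54532 genes of the deposited tables. The cells were cardiac fibroblasts of C57BL/6 mice, used at passage 2. One group received a plasmid for murine thrombospondin-4 (TSP-4, gene Thbs4) with an HA tag, named pAAV.CMV.SV40.THBS4-HA.SV40(polyA). The control group received an empty plasmid named pAAV-CA. Both groups then spent 12 h in standard medium free of antibiotics and 24 h without serum, and each gave 4 libraries of poly(A) RNA, lettered A to D. The plasmids are different constructs by their names, so the comparison is between plasmids that may differ in more than the Thbs4 insert. The control titles call these cells non-stimulated, while their descriptions name the empty plasmid. The labels do not say what the letters mark, or whether each library is a separate animal or culture, so p-values reflect the spread among these libraries, which may be technical. The groups are called the TSP-4 group and the control group from here on. The age of the mice and the share of cells that took up plasmid were not given in the sources used here.

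Piezo1 and Piezo2 are large channels opened by mechanical force, and Piezo1 carries calcium into many cells of the heart and vessels. Transient receptor potential (TRP) channels are a broad family of cation channels, several of which are opened by stretch, swelling, lipids or calcium rather than by force alone, and whether each one senses force directly is debated. Calcium that enters fibroblasts through such channels can act on calmodulin and the phosphatase calcineurin, which lets NFAT transcription factors enter the nucleus.

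By the coordinates in the deposited tables (GRCm38), Piezo1 (ENSMUSG00000014444) lies at chr8:122481698-122551329 on the minus strand and Piezo2 (ENSMUSG00000041482) at chr18:63010213-63387183 on the minus strand. Trpv2 lies at chr11:62574486-62600515 (plus strand), Trpv4 at chr5:114622152-114658421 (minus), Trpm4 at chr7:45302632-45333780 (minus) and Trpm7 at chr2:126791565-126876230 (minus). Trpc1 lies at chr9:95705082-95750375 (minus), Trpc6 at chr9:8544142-8680741 (plus) and Pkd2 at chr5:104459450-104505819 (plus). All 9 are labelled protein-coding in the deposited data. In GENCODE vM21, Piezo1 shares 2441 bases of exon, 24.6% of its exonic length, with Ctu2 on the opposite strand. The other 8 share 0 exonic bases with another gene. The strand setting of the counting was not given in the sources used here, so reads of Piezo1 and Ctu2 in the shared stretch may not have been told apart. Ctu2, a tRNA-modifying enzyme gene, stood at 18.1 to 23.6 CPM.

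Depth was 17123735 to 22530947 counts per library. Thbs4, the gene carried by the plasmid, stood at 1783 ± 288 CPM (read counts scaled to library size; SD, n = 4) in the TSP-4 group and at 0.327 ± 0.254 CPM (SD, n = 4) in the control group, and the groups did not overlap. It was the 1 gene of 14723 tested that differed between the plasmids (log2 fold change 12.45, adjusted p = 1.9e-06, edgeR's quasi-likelihood test with Benjamini-Hochberg adjustment). The 11 fibroblast markers summed to 11871 to 15708 CPM, most of it from a few genes such as Col1a1 (mean 5347 CPM over the 8 libraries) and Vim (3927 CPM), whereas Pdgfra averaged 67.4 CPM and Lum 5.51 CPM. The libraries also held RNA of macrophage markers (322 to 1826 CPM, summed over 12 genes) and of epicardial and mesothelial markers (495 to 992 CPM, summed over 6 genes). In bulk RNA, fewer cells of a type and less RNA per cell cannot be told apart.

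The promoter sequences of 5 channel genes are shown because these 5 differed between the lettered pairs of libraries, as described further on. Each is the stretch of 250 bases just before a transcription start in RefSeq (GRCm38.p6), 5′ to 3′ on the strand of the gene. RefSeq's table matched 7 of the 9 genes and gave none for Piezo2 and Trpm4. For Trpv2 it lists 3 starts, and the window of the first is printed. Capitals mark GGGCGG (an SP1 box), GAGGAA (the core bound by PU.1, a myeloid transcription factor) and the TATA box, spelled TATAAA, each searched on both strands.
Piezo1, chr8:122551330-122551579, minus strand: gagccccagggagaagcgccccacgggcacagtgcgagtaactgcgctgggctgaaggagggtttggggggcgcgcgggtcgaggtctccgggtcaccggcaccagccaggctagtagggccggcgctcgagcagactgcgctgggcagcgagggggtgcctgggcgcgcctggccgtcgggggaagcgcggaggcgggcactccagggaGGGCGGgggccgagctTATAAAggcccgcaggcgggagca
Trpv4, chr5:114658422-114658671, minus strand: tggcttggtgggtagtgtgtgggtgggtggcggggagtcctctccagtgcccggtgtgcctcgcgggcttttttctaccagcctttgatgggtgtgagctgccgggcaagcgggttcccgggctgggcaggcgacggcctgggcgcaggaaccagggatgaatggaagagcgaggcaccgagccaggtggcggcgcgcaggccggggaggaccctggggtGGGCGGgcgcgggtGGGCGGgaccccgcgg
Trpv2, chr11:62574236-62574485, plus strand: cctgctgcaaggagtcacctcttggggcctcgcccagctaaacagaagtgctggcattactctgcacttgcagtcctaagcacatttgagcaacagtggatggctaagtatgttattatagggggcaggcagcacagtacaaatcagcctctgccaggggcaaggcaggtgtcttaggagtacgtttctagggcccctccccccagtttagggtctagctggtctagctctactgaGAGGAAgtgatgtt
Trpc6, chr9:8543892-8544141, plus strand: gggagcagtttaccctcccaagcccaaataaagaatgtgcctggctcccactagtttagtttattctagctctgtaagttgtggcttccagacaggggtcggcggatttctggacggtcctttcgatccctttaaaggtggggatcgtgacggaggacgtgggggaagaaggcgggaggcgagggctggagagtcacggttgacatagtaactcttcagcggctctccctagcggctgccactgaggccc
Pkd2, chr5:104459207-104459456, plus strand: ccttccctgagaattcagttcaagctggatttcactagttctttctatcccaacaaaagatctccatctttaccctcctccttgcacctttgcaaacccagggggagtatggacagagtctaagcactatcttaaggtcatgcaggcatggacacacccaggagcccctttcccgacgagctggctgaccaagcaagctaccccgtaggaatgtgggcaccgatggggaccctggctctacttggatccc
The Piezo1 and Trpv4 windows were rich in G and C (74.0% and 72.0%) and in CpG (26 and 22 of them), against medians of 52.4% and 6 over 32817 such windows in the table. Piezo1 held 1 SP1 box and 1 TATA box, and Trpv4 held 2 SP1 boxes. The SP1 box occurred in 32.7% of all windows and the TATA box in 12.4%. The Trpv2 window had 53.2% G and C, 2 CpG and 1 GAGGAA, a sequence present in 23.3% of all windows. The window of the second Trpv2 start overlaps it and holds the same GAGGAA, and that of the third start holds 0. None of the 3 marked motifs was found in the windows of Trpc6 (56.4% G and C, 12 CpG) and Pkd2 (52.8% G and C, 4 CpG). The core GGAATG, bound by TEAD factors, occurred 1 time in the Pkd2 window and in 12.6% of all windows, while GGAAAA, the core bound by NFAT, was in none of these 5 windows and in 20.4% of all. The windows of Trpm7 and Trpc1, which did not pass between the lettered pairs, are not printed. They had 60.4% and 62.8% G and C, 26 and 17 CpG, and 0 and 3 SP1 boxes, so these features were not particular to the printed genes. These matches describe the letters of the windows and say nothing on whether a factor binds there.

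Piezo1 was by far the most abundant of the 9 transcripts. Per length, its level was 97.5 ± 11.6 FPKM (reads scaled by gene length and library size; SD over 8 libraries), which ranked 488 among the 14723 genes tested and made up 68.2% of the summed FPKM of the 9 channels. Pkd2, which encodes polycystin-2, a channel of cilia and the endoplasmic reticulum, followed at 23.6 ± 2.01 FPKM, and Trpm7, a channel fused to a kinase and permeable to magnesium and calcium, at 9.44 ± 0.530 FPKM. These 3 genes did not overlap in level with any other member: the Piezo1 libraries lay at 78.7 to 113 FPKM, those of Pkd2 at 21.2 to 26.7 FPKM and those of Trpm7 at 8.70 to 10.4 FPKM.

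The other 6 channels were expressed at low levels. Trpc6, a channel opened by diacylglycerol, stood at 3.67 ± 0.952 FPKM, and Trpv2, a channel of the vanilloid subfamily that is also prominent in macrophages, at 3.36 ± 0.785 FPKM (SD over 8 libraries). Their ranges overlapped, and Trpc6 was above Trpv2 in 5 of 8 libraries, so this neighbouring pair did not differ beyond its spread. Piezo2, best known from touch-sensing neurons, stood at 1.85 ± 0.411 FPKM, Trpc1 at 1.54 ± 0.204 FPKM and Trpm4, a calcium-activated channel for sodium and potassium, at 1.25 ± 0.138 FPKM. Piezo2 overlapped with Trpc1, and Trpc1 with Trpm4, although the first of each pair was higher in 7 of 8 libraries. Trpv4, a calcium-permeable channel opened by swelling and lipids, was the lowest at 0.654 ± 0.183 FPKM, ranking 12538 of 14723. Its 35 to 72 reads per library leave wide counting intervals, from 24.4 to 48.7 reads for the lowest library (95% Poisson interval, counting error only). In the deposited table the length used for Piezo2 was 14566 bases, whereas its exons in GENCODE vM21 cover 17162, so its FPKM depends on the annotation. The other 8 lengths equalled those of GENCODE vM21. The plot of levels by library shows the order, in which 5 of 8 neighbouring pairs did not overlap.

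**Figure D1:**
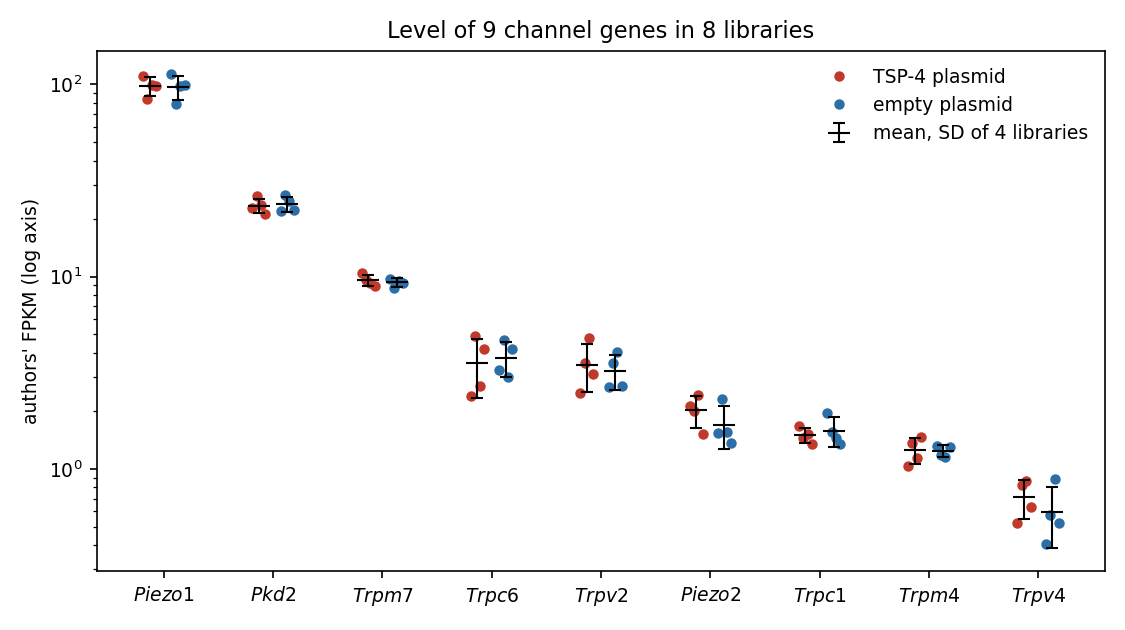
Level of each channel gene in FPKM (vertical log axis) in the 4 TSP-4 plasmid and 4 empty plasmid libraries, with 1 point per library and the mean and SD of each group as bars. Piezo1 stands at 78.7 to 113 FPKM in all 8 libraries, and no gene shows its groups apart.

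None of the 9 channel genes passed the test between the TSP-4 and control groups. The count was 0 of 9 after adjustment, where 0.00679% of all genes tested passed, and 0 of 9 at an unadjusted p under 0.05, where 1.6% of all genes passed. A share of 1.6% is below the threshold of 0.05 itself, so the p-values of this fit without letter may be too large. With the letter as a block, 0 of 9 passed after adjustment (0.0136% of all genes) and 0 of 9 at an unadjusted p under 0.05 (8.12% of all genes). The 2 groups overlapped for all 9 genes, while 1.51% of all genes tested did not overlap, and every adjusted p was 0.999968 (edgeR's quasi-likelihood test, Benjamini-Hochberg over 14723 genes). For all 9 the 95% interval of the fold change stayed within a 2-fold change in either direction, as it did for 88.5% of all genes tested. On simulated data the test found few of the smallest changes. The intervals given next are from the fit without letter unless the block is named. Differences inside them cannot be told from no difference in that fit. With the letter as a block the intervals were narrower, for example -0.09 to 0.26 for Trpv2 and -0.11 to 0.05 for Pkd2 (log2 fold change). The share of 8.12% in that fit is above the threshold of 0.05. Its p-values may be too small and its intervals, here and below, too narrow.

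Among the Piezo channels, Piezo1 stood at 1097, 839, 987 and 981 CPM in TSP-4 libraries A to D and at 1117, 790.1, 981 and 991 CPM in control libraries A to D. The groups overlapped throughout, with A high and B low in both. The log2 fold change was 0.0093 (95% interval -0.25 to 0.27, unadjusted p = 0.937 in edgeR). With the letter as a block the interval narrowed to -0.06 to 0.09. Piezo2 stood at 30.9, 29.3, 35.5 and 22.2 CPM in the TSP-4 group and at 22.5, 34.0, 22.9 and 19.8 CPM in the control group. It was higher in the TSP-4 group in 3 of 4 letters and lower in B, and its groups overlapped. Its group means were 29.5 ± 5.50 and 24.8 ± 6.29 CPM (SD, n = 4 each), and the log2 fold change was 0.25 (95% interval -0.19 to 0.69, or 0.878 to 1.61 as a fold; edgeR, unadjusted p = 0.225). Without control library B it was 0.44 (unadjusted p = 0.0175, adjusted p = 0.9996).

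Of the vanilloid channels, Trpv2 stood at 11.1, 15.97, 21.5 and 14.0 CPM in TSP-4 libraries A to D and at 11.9, 16.1, 18.4 and 12.1 CPM in the control group. In both groups library A was the lowest and C the highest. The log2 fold change was 0.10 (95% interval -0.40 to 0.59). Trpv4 gave 47, 59, 60 and 46 reads in the TSP-4 group and 35, 40, 72 and 41 reads in the control group. It was higher in the TSP-4 group in 3 of 4 letters, and its groups overlapped. The means were 2.90 ± 0.668 and 2.45 ± 0.864 CPM (SD, n = 4 each), and the interval of the log2 fold change (0.24) was the widest of the 9 genes, from -0.38 to 0.86, which is 0.767 to 1.82 as a fold.

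Of the melastatin channels, Trpm7 was the steadiest of the 9 genes, with a coefficient of variation of 5.62% over the 8 libraries in FPKM. It stood at 118, 109.6, 104.5 and 101.9 CPM in the TSP-4 group and at 110.3, 99.5, 109.0 and 105.7 CPM in the control group. The difference of 0.032 on the log2 scale had a 95% interval of -0.10 to 0.16. Trpm4 lay at 11.2, 14.9, 12.3 and 15.8 CPM in the TSP-4 group and at 14.3, 12.9, 12.7 and 14.2 CPM in the control group. Its highest and its lowest library were both of the TSP-4 group, and its log2 fold change was 0.0054 (95% interval -0.26 to 0.27).

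Of the canonical channels, Trpc1, which assembles with other TRPC subunits, stood at 13.4, 11.8, 12.2 and 10.8 CPM in the TSP-4 group and at 15.7, 12.7, 11.8 and 10.8 CPM in the control group. The groups overlapped, and the log2 fold change was -0.081 (95% interval -0.37 to 0.21). Trpc6 stood at 12.1, 25.04, 13.6 and 21.4 CPM in the TSP-4 group and at 16.6, 24.0, 15.3 and 21.5 CPM in the control group. In both groups B and D were high, and A and C were low. The group means of Trpc6 were 18.1 ± 6.18 and 19.3 ± 4.08 CPM (SD, n = 4 each), with a log2 fold change of -0.10 (95% interval -0.68 to 0.48, and -0.31 to 0.05 with the letter as a block). Pkd2 stood at 231, 267, 240.1 and 216 CPM in the TSP-4 group and at 224, 274, 253 and 225 CPM in the control group. Library B was the highest of each group, and the log2 fold change of Pkd2 was -0.033 (95% interval -0.23 to 0.16).

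**Figure D2:**
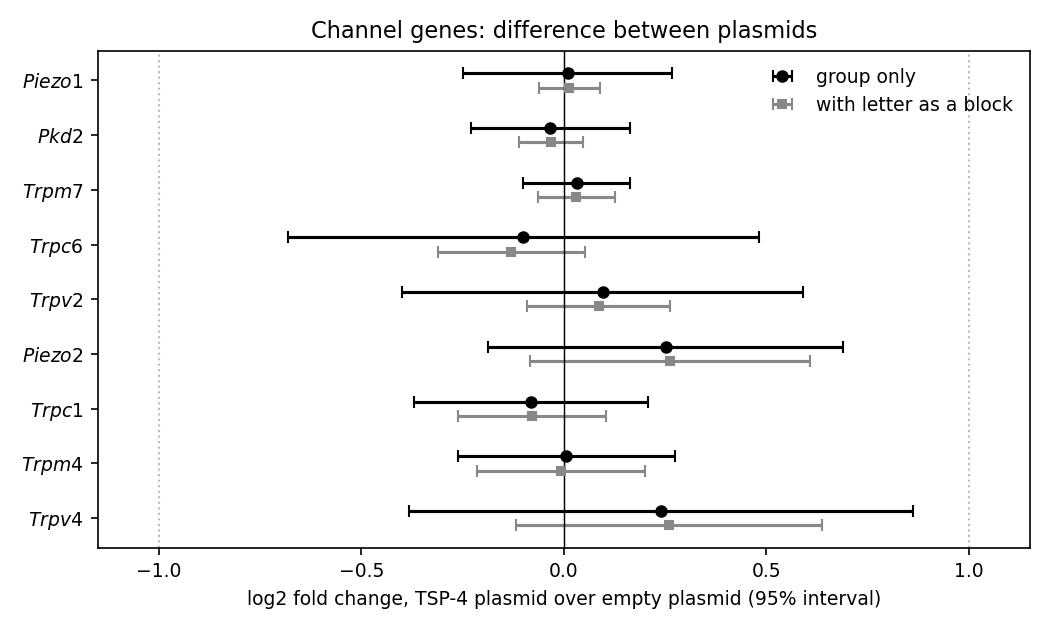
Log2 fold change of each channel gene, TSP-4 plasmid over empty plasmid (horizontal axis), with its 95% interval from edgeR without (black) and with (grey) the letter as a block. Dotted lines mark 2-fold, and all intervals cross 0 and lie inside these lines.

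Taking libraries of the same letter together, 0 of 9 genes moved in the same direction in all 4 letters, against 16.1% of all genes tested. The within-letter differences of Piezo1 (TSP-4 minus empty plasmid, log2 CPM) were -0.03, 0.09, 0.01 and -0.01 in A to D. Those of Piezo2 were larger and mixed in sign, at 0.46, -0.22, 0.63 and 0.16. For Trpc6 they were -0.45, 0.06, -0.17 and -0.00. Over the 9 genes the median size of the fitted log2 difference was 0.081, beside 0.065 over all genes tested, and 6 of 9 values were above 0, beside 7354 of 14723 for all genes.

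Between the lettered pairs of libraries, several channel genes differed. In a test of the 3 differences between the 4 letters, with the plasmid as a term, 5 of 9 genes passed (Piezo1, Trpv2, Trpv4, Trpc6 and Pkd2; edgeR's quasi-likelihood test with Benjamini-Hochberg adjustment over all genes), where 28.1% of all genes tested passed. On simulated data this letter test made false calls above its nominal rate, so its adjusted p-values may be too small. With 9 genes, this count is a description of these genes and not a test that channels differ more often than other genes. What the letters mark was not given in the sources used here, so these are differences between sets of libraries and not between conditions.

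Piezo1 averaged 1107, 814, 984 and 986 CPM in letters A to D, and the highest was 1.36 times the lowest (adjusted p = 0.000111, edgeR). Its largest difference between plasmids within a letter was 0.09 on the log2 scale. Pkd2 averaged 227, 271, 247 and 221 CPM (highest 1.23 times the lowest, adjusted p = 0.00225, or 0.0976 in edgeR without both libraries of letter B). Both genes thus held the same extreme library in each group, A as the highest and B as the lowest for Piezo1, and B as the highest for Pkd2. Trpc6 averaged 14.4, 24.5, 14.5 and 21.4 CPM, a span of 1.71 times (adjusted p = 0.000274, edgeR).

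The vanilloid channels Trpv2 and Trpv4 followed the same order of letters, A lowest, then D, B and C, in both groups. Trpv2 averaged 11.5, 16.03, 19.9 and 13.1 CPM in A to D, a span of 1.73 times (adjusted p = 0.000573, edgeR). Trpv4 averaged 1.88, 2.86, 3.61 and 2.36 CPM, a span of 1.92 times (adjusted p = 0.0420, edgeR). The call of Trpv4 lay near the threshold and was lost in 12 of 17 alternative settings, with adjusted p up to 0.344 (DESeq2). Leaving out any 1 library other than control library B ended it (adjusted p 0.0546 to 0.237, edgeR). An identical order of the 4 letters in both groups was found for 15.7% of all genes tested.

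Of the 4 genes that did not pass, Trpc1 was highest in A and lowest in D in each group (14.6 and 10.8 CPM as letter means, adjusted p = 0.0634, edgeR). Piezo2 averaged 26.7, 31.6, 29.2 and 21.0 CPM (adjusted p = 0.224, edgeR), with letter means spanning 1.51 times and its plasmid differences within a letter as large as 0.63 on the log2 scale. It passed without TSP-4 library B (adjusted p = 0.00124), control library B (0.0399) or control library C (0.0461, edgeR). The letter means of Trpm7 spanned 1.10 times, the least of the 9 genes (adjusted p = 0.294, edgeR), and for Trpm4 the adjusted p was 0.378.

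**Figure D3:**
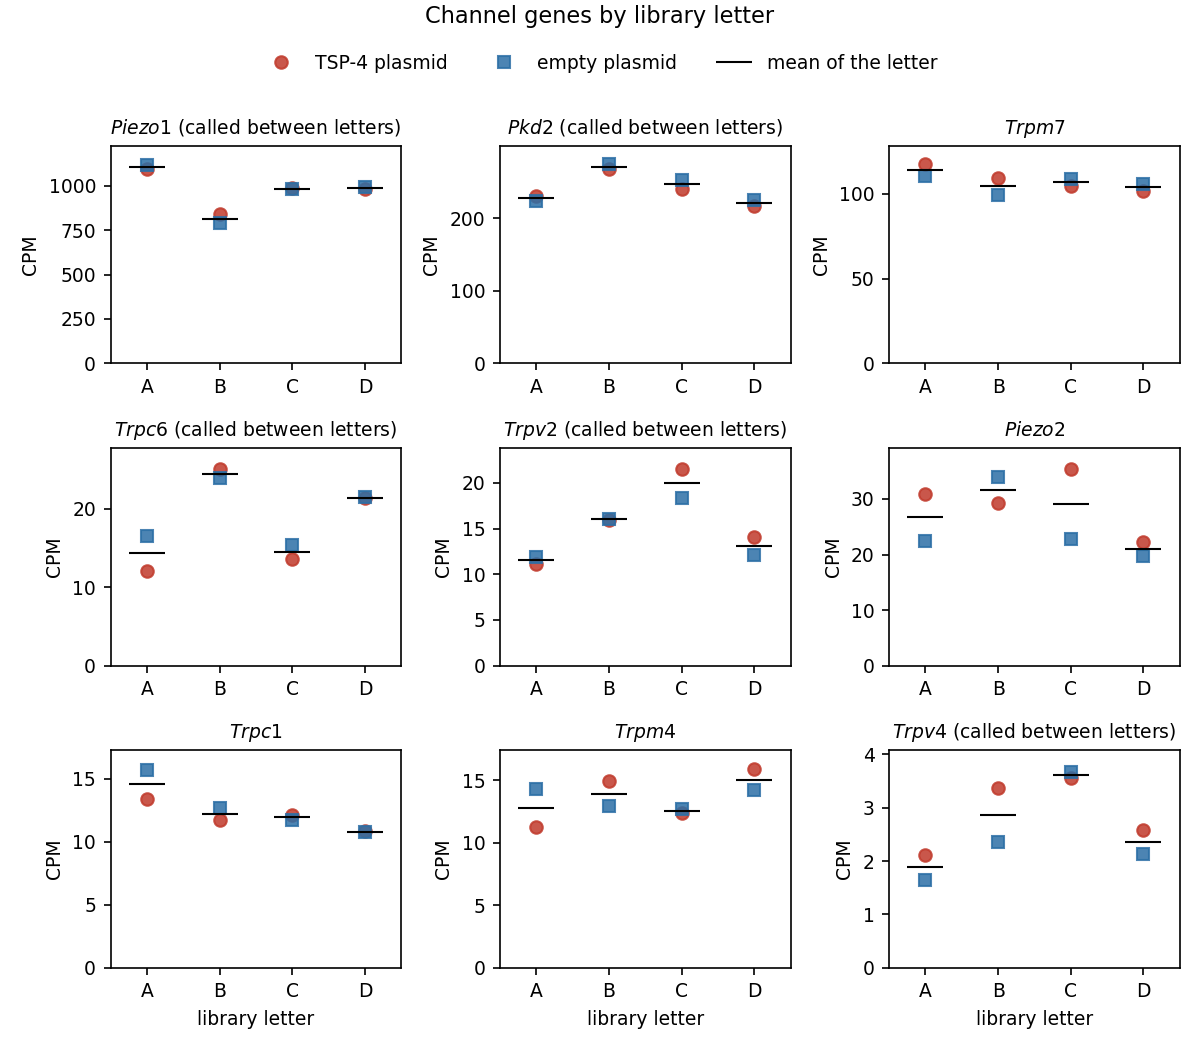
Level of each channel gene (CPM, vertical axes from 0) in letters A to D, with a red circle for the TSP-4 plasmid, a blue square for the empty plasmid and a bar for the letter mean. Piezo1 is lowest in B and Trpv2 is highest in C with either plasmid.

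The levels of cell type markers moved with letter as well. Macrophage markers summed to 339, 941, 1652 and 736 CPM as letter means in A to D, and 11 of 12 passed the letter test, which 28.1% of all genes tested passed. Their order of letter means, A below D below B below C, is that of Trpv2 and Trpv4. Within the TSP-4 group the sums of B (803 CPM) and D (805 CPM) were close, with B the lower. In the separate libraries the sums were 322 to 1826 CPM in the TSP-4 group and 356 to 1478 CPM in the control group. Lyz2, which encodes lysozyme, stood at 174, 445, 1020 and 458 CPM in TSP-4 libraries A to D and at 189.9, 585, 837 and 374 CPM in control libraries A to D. Epicardial and mesothelial markers summed to 983, 517, 595 and 859 CPM, and 5 of 6 passed. The highest and lowest letters of this sum were those of Piezo1. Its range was 538 to 974 CPM in the TSP-4 group and 495 to 992 CPM in the control group. Most of it came from Lrrn4, Upk3b and Upk1b (means of 345, 224 and 140 CPM). Upk3b and Upk1b were highest in A and lowest in B in each group, and Msln and Lrrn4 in the control group only. Krt19 was highest in D and Wt1 in B in each group. The part of these other cell types in the differences of Trpv2, Trpv4 and Piezo1 between letters was not tested. The sums of the fibroblast markers were 14500.2, 15403, 13352 and 11994 CPM, and 9 of 11 passed. Single fibroblast markers spanned more than this sum: Dcn, a small proteoglycan, ranged from 122 CPM (control library A) to 547 CPM (control library B), and Lum from 1.57 CPM (TSP-4 library D) to 11.8 CPM (control library B). Both were highest in B in each group, as were Pkd2 and Trpc6, and the part of this in those channels was not tested.

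The other marker sums were lower. Endothelial markers summed to 51.0 to 74.0 CPM in the TSP-4 group and 52.6 to 85.5 CPM in the control group, and 5 of 8 passed the letter test. Their sum was lowest in B in each group. Emcn (mean 19.0 CPM), alone of these 8, was highest in A and lowest in B in each group, as was Piezo1. Egfl7 (mean 4.44 CPM), alone of these 8, kept the order of letters of Trpv2 and Trpv4 in each group. The part of endothelial RNA in these channels was not tested. Mural and smooth muscle markers summed to 39.6 to 67.7 CPM over both groups, with 1 of the 6 tested passing, and Kcnj8 at 0 reads in 6 libraries. The cardiomyocyte markers Myh6, Myl2 and Actc1 were near 0, at means of 0.0471, 0.103 and 0.0825 CPM, and Tnnt2 stood at 13.6 CPM. Of the 6 Schwann and neural markers, 4 were tested, and their sums were 10.8 to 21.1 CPM in the TSP-4 group and 9.22 to 16.3 CPM in the control group.

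**Figure D4:**
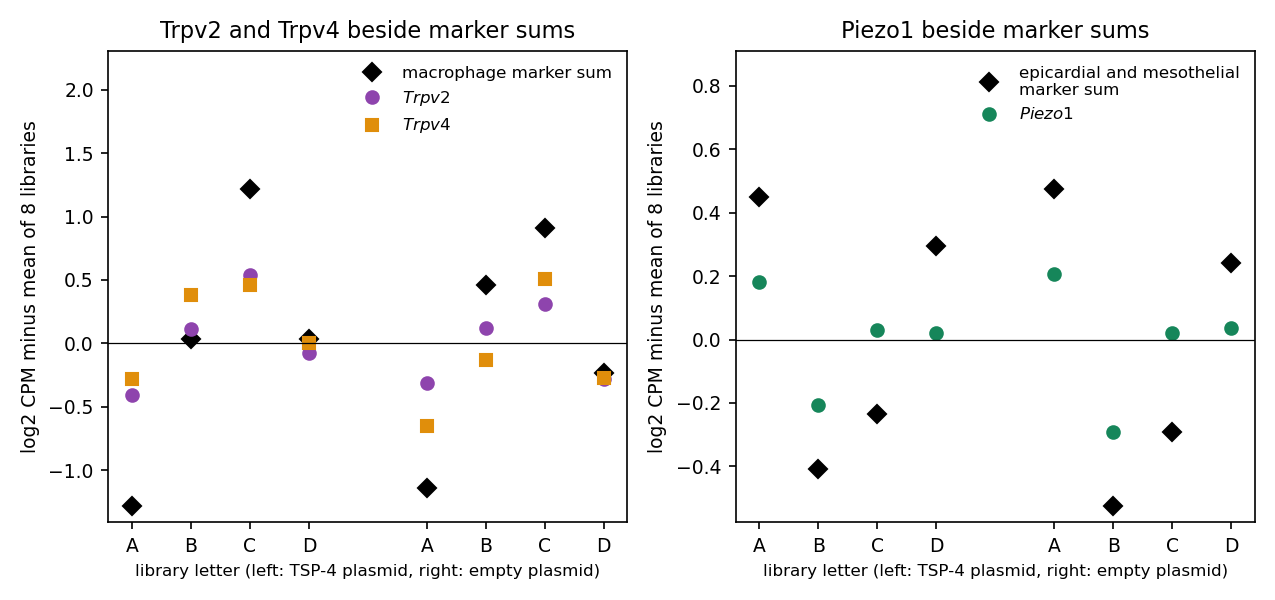
Log2 CPM minus its mean over the 8 libraries (vertical axes) for the macrophage marker sum with Trpv2 and Trpv4 (left) and the epicardial and mesothelial marker sum with Piezo1 (right), 1 point per library. The macrophage marker sum, Trpv2 and Trpv4 are lowest in A and highest in C in both groups. The epicardial and mesothelial marker sum and Piezo1 are highest in A and lowest in B.

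The gene with the most similar pattern over the 8 libraries was found for each channel among 13494 genes with a mean of at least 1 CPM (Pearson's r of log2 CPM). The libraries share letters, and each r is the highest of 13494 over only 8 libraries, so a high r can come from this selection alone. These r values are descriptions and not tests of shared regulation. For Piezo1 it was Pkp2, a desmosomal plaque gene (r = 0.985), and for Piezo2 it was Wdr26 (r = 0.985). For Trpv2 it was Psap, the precursor of lysosomal saposins (r = 0.989), and for Trpv4 it was Crnkl1 (r = 0.955). For Trpm4 it was Sdccag8 (r = 0.969), for Trpm7 Arhgap12 (r = 0.970) and for Trpc1 Mettl17 (r = 0.954). For Trpc6 it was Vgf, a secreted neuropeptide precursor (r = 0.977), and for Pkd2 it was Ckap2, a cytoskeleton-associated protein of dividing cells (r = 0.989).

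Genes related to the channels by family or pathway were counted by list, and none passed between plasmids. Of 22 other TRP family genes 8 were tested, and 0 were called in either direction. Pkd1, which encodes polycystin-1, the partner of polycystin-2, was the highest of them per length at 17.9 FPKM, and stood at 320 ± 27.0 CPM in the TSP-4 group and 308 ± 22.8 CPM in the control group (SD, n = 4 each; log2 fold change 0.055). The lysosomal channel Mcoln1 stood at 44.6 and 43.0 CPM, and Trpm5 at 3.99 and 3.23 CPM (unadjusted p = 0.166). Pkd2l2 stood at 27.5 and 26.3 CPM, and shares 10.9% of its exonic bases with Fam13b on the opposite strand. Of the 14 not tested, 3 (Trpc2, Trpv5 and Pkd2l1) had 0 reads in all 8 libraries, and the largest count of any was 8 reads in a library.

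Of 17 genes listed here as other mechanically activated channels or Piezo partners, 10 were tested and 0 were called. The list was made by name, and these data do not show whether each one is opened by force. Tmem63a, a channel opened by osmotic stress and stretch, stood at 154 and 149 CPM in the TSP-4 and control groups. Kcnk2, a stretch-activated potassium channel, was at 18.2 ± 3.27 and 21.0 ± 2.20 CPM (SD, n = 4 each; log2 fold change -0.20, unadjusted p = 0.160 in edgeR, or 0.0375 with the letter as a block). With the block its adjusted p was 0.578 in edgeR. It was 1 of 10 tested genes of this list under an unadjusted 0.05 in that fit, where 8.12% of all genes were. Kcnk2 shares 12.2% of its exonic bases with an opposite-strand transcript. Tmem120a stood at 37.9 and 40.1 CPM and Tmem87a at 36.1 and 33.8 CPM.

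Of 19 genes for calcium entry, stores and extrusion, 15 were tested and 0 were called. The sarco/endoplasmic reticulum pump Atp2a2 was the most abundant per length, at 67.8 FPKM, and stood at 407 ± 13.8 and 421 ± 13.1 CPM in the TSP-4 and control groups (SD, n = 4 each). Orai1 and Orai3, store-operated entry channels, were at 31.6 and 33.3 CPM and at 29.2 and 31.0 CPM. In the calcineurin-NFAT and calmodulin list all 18 genes were tested and 0 were called. Camk2a, a calcium/calmodulin-dependent kinase subunit, had the smallest p (6.57 and 5.52 CPM, log2 fold change 0.25, unadjusted p = 0.0961), and Nfatc4 stood at 26.8 and 24.997 CPM. Calm2 and Calm3 stood at 287 and 291 CPM and at 365 and 356 CPM, and near-identical calmodulin copies make their counts uncertain. Rcan1 and Rcan2, which bind calcineurin, were at 46.0 and 51.8 CPM and at 50.01 and 44.5 CPM. They were chosen after their values were seen, because with the letter as a block they alone of this list had an unadjusted p under 0.05 (0.00884 and 0.00902 in edgeR, adjusted p = 0.458 for each). These are 2 of 18 genes, where 8.12% of all genes passed the same unadjusted threshold.

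The 4 related lists had median log2 fold changes of 0.055, 0.022, -0.012 and -0.0012, beside -0.00014 for all genes tested and 0.0093 for the 9 channels. Between letters, 4 of 8 TRP genes, 3 of 10 mechanical channel and partner genes, 9 of 15 calcium genes and 5 of 18 calcineurin-NFAT genes passed, beside the 28.1% of all genes. Of these, 3 are named after their values were seen. The lysosomal channel Mcoln2 (highest letter 5.17 times the lowest) and Trpm2 (6.46 times, at a mean under 1 CPM in each group) were lowest in A and highest in C, as were Trpv2, Trpv4 and the macrophage markers, and the part of macrophage RNA in this was not tested. Rcan1 was highest in D and lowest in B (1.73 times).

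**Figure D5:**
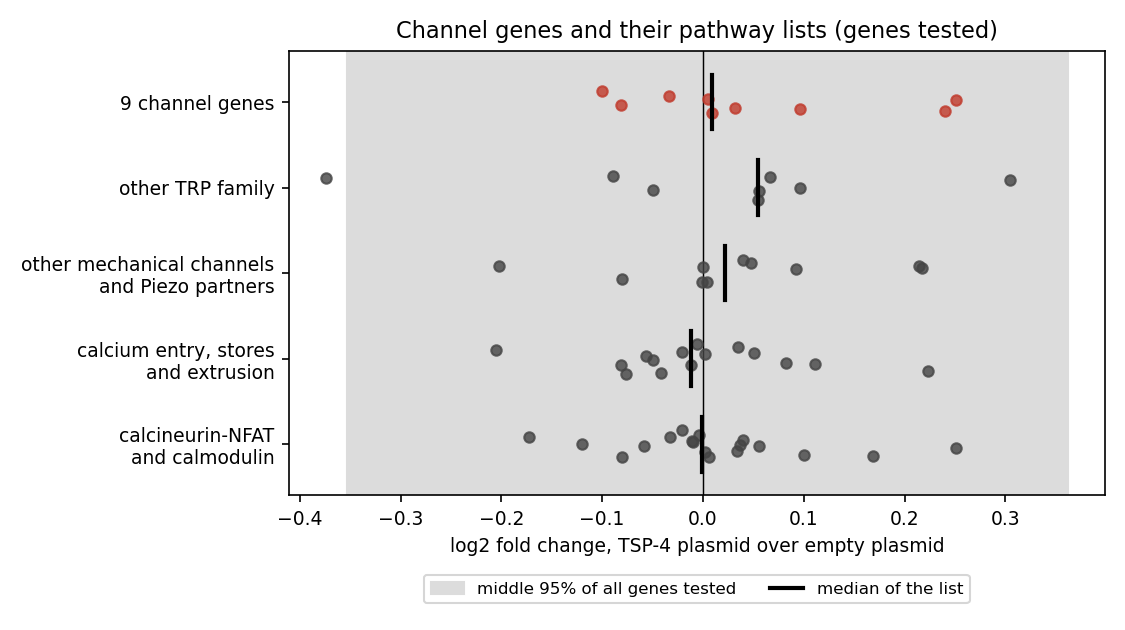
Log2 fold change between plasmids (horizontal axis) of each tested gene in the channel list and the 4 related lists, with the list medians as black lines and the middle 95% of all genes tested in grey. All 9 channels lie inside the grey band, with a list median of 0.0093.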

How the data were processed

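Poly(A) RNA of 8 libraries made with the NEBNext Ultra kit was measured, per the labels' protocols. Tools named in the submitters' processing notes are HTSeq 0.6.1, TopHat2 2.0, CASAVA and Cufflinks 2.1.1, and the builds are mm10 and GRCm38.p6. Strand setting and annotation release were not given in the sources used here. The authors deposited whole-number read counts and FPKM values for 54532 genes, and both were used as deposited.

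In R 4.3.3, edgeR 4.0.16 (quasi-likelihood, robust, TMM factors, expression filter at a minimum count of 10) tested 14723 genes between plasmids, with Benjamini-Hochberg adjustment at 0.05. A letter term was added as a replicate block and tested for differences between letters. For each letter the 2 libraries' deviations from their group means correlated across genes (r = 0.508 to 0.651, others -0.570 to 0.323), so the letters pair the libraries, by the data and not by the labels. Alternatives were DESeq2 1.42.0, limma 3.58.1 on log2(FPKM + 0.1), other scalings, no filter and libraries left out. Sample sizes limit precision, and intervals on counts cover counting error only. On simulated data the plasmid test found few of the smallest changes and missed many moderate ones, and the letter test made false calls well above its nominal rate.

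The channels, related lists and markers were chosen with earlier results of these data known. All 9 channels, up to 4 genes per related list (smallest p and highest FPKM) and the gene most like each channel were named by rule.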

Additional observations from a re-analysis of the deposited data

Results flagged for a closer look

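In groups of 4 libraries, the highest or lowest value was compared with its nearest neighbour, and 2 of 36 groups of values stood apart (chance gives about 5%). The total count of the TSP-4 plasmid library A was 22530947, and the next was 17681837, a gap of 0.897 of the group's range. The summed Schwann and neural markers of the empty plasmid library C were 9.22 CPM, the next being 15.1 CPM, a gap of 0.839 of the range. No channel gene stood apart in this way.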

How the results depend on the processing

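Between plasmids, the count of channel genes called was 0 in all 18 alternatives, including DESeq2, limma, every library left out and the replicate block (0 of 9). The block changed no adjusted call among the channels and related lists, and over all genes tested it raised the count from 1 to 2. Piezo2 reached an unadjusted p under 0.05 in 2 alternatives, without control library B (log2 0.44, unadjusted p = 0.0175, adjusted p = 0.9996, edgeR) and with the block and without letter B (0.43, unadjusted p = 0.00025, adjusted p = 0.154). The small differences had no stable sign. With library totals as the scaling, Piezo1 was -0.0050 and Trpm4 -0.0064 (log2). With the replicate block Trpm4 was -0.0068, and with the block and without both libraries of letter B, Piezo1 was -0.010, Trpm4 -0.076 and Trpm7 -0.0044, and without letter D Trpm4 was -0.059. Leaving out 1 library in turn gave ranges of -0.077 to 0.084 for Piezo1, -0.089 to 0.23 for Trpv2, -0.077 to 0.089 for Trpm4, -0.0095 to 0.060 for Trpm7, -0.15 to 0.038 for Trpc1, -0.30 to 0.055 for Trpc6 and -0.093 to 0.027 for Pkd2, and Piezo2 (0.16 to 0.44) and Trpv4 (0.085 to 0.50) kept their sign. The cause was not tested.

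Between letters, 4 to 7 of 9 genes were called over 17 alternatives, of which the comparison of 3 letters was chosen after seeing the data. Piezo1, Trpv2 and Trpc6 were called in all 17, Pkd2 in 16 (adjusted p = 0.0976 in edgeR without letter B), and Trpv4 in 5 (adjusted p 0.0295 to 0.344). Piezo2 was called in 7 alternatives, for example with DESeq2 (adjusted p = 0.0455), and Trpc1 in 2. The order of levels was the same in all 10 alternatives. Trpv4, with 35 to 72 reads per library, is the channel gene most limited by depth.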
